A study of Mus musculus with 8 samples.

Results

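The complement genes described here are 8 of the 33696 genes in the count tables. They are C1qa, C1qb, C1qc, C3, C4b, C3ar1, C5ar1 and Cfp, chosen by symbol and not by any measured value, and each symbol was found once in all 4 gene expression libraries. The libraries came from brain tumors of mice with the genotype NestinCreERT2;Fus1;RFPTdT, in which a Nestin-driven, tamoxifen-inducible Cre recombinase switches on the ZFTA-RELA fusion of supratentorial ependymoma together with luciferase and a red fluorescent reporter. At 3 weeks of age mice with tumors were assigned at random to 1 injection into the cerebrospinal fluid of either vehicle IgG, a control antibody, or mavrilimumab (5 mg/kg), which binds GM-CSF receptor alpha, and tissue was taken at 6 to 8 weeks of age. Mice were followed to a humane endpoint, and the study describes these cells as taken at recurrence of the tumor. It also reports weeks of tumor regression after mavrilimumab. How recurrence after that regression relates to the stated 6 to 8 weeks is not given. Whether age at collection differed between the groups is not given either. By their genotype all mice carried the fusion. Cells of both groups were stained for CD45 (leukocytes) and Ter119 (erythroid cells) and sorted before droplet capture. There were 2 libraries labelled vehicle IgG and 2 labelled mavrilimumab. The study describes tumors pooled within each group, and neither it nor the labels give the number of mice in each library, so any p-value measures the spread between libraries, which may in part be technical.

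Complement is a protein cascade that tags cells and debris for removal and calls in leukocytes. C1q, a protein built from the chains encoded by C1qa, C1qb and C1qc, starts the classical pathway, C4 and C3 are cleaved in turn and coat the target, and properdin, encoded by Cfp, stabilises the C3-cleaving enzyme of the alternative pathway. The fragments C3a and C5a act on the receptors encoded by C3ar1 and C5ar1. In the brain, microglia, the resident macrophages, are known as the main makers of C1q, and astrocytes and oligodendrocytes can make C4 and C3.

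The chains of C1q lie side by side. In RefSeq's annotation of GRCm38.p6, the patch release of the mm10 build named in the submitters' processing notes, C1qb lies at chr4:136880126-136886200, C1qc at chr4:136889801-136892936 and C1qa at chr4:136895916-136898844. C3 lies at chr17:57203967-57228136 and C4b at chr17:34728139-34743902. The receptor gene C3ar1 lies at chr6:122847140-122856157, C5ar1 at chr7:16246743-16259540 and Cfp at chrX:20925454-20931555. The 250 bases before the start used in RefSeq's promoter table are shown for the C1q chains that have a window there, since their levels moved together, and for C3ar1, the receptor that was also highest in microglia. The C1qb window is chr4:136886201-136886450, the C1qc window chr4:136892915-136893164 and the C3ar1 window chr6:122856158-122856407, all read on the minus strand, 5′ to 3′. The start used for C1qc lies inside the annotated gene, so its window overlaps the gene by 22 bases, and that of C5ar1, not shown, does so by 202 bases. Capitals mark a match to a searched motif.
C1qb: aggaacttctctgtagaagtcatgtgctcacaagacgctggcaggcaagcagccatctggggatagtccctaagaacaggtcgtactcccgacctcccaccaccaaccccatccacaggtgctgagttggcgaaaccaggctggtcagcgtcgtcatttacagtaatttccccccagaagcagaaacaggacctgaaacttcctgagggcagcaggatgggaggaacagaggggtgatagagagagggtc
C1qc: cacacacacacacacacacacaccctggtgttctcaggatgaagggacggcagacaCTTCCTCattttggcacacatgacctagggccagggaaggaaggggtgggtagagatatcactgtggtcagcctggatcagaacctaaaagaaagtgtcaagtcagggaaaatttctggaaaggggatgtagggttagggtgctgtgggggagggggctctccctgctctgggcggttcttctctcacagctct
C3ar1: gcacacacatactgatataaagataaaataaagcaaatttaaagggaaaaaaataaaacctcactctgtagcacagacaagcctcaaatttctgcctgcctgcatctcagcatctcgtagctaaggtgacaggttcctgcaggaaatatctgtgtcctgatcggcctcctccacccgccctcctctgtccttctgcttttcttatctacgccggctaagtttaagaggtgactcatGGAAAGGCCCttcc
The C1qc capitals are GAGGAAG, a PU.1-type ETS motif, read on the opposite strand and beginning 194 bases before the start. The same letters occur on either strand in 10.6% of 32851 promoter windows of this length. The C3ar1 capitals match an NF-kB motif (GGG, any 2 bases, TTTCC) on the opposite strand, 14 bases before the start, a motif held by 1.41% of all windows. The third motif searched, an interferon-stimulated response element (GAAA, any 2 bases, GAAA) held by 2.98% of all windows, had no match in these windows. Of the 8 genes, 6 had a window in the RefSeq table, and the windows of C3, C5ar1 and Cfp held none of these letters. C1qa and C4b are named only.

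Expression was measured as unique molecular identifiers (UMIs, counts of single captured transcripts) per gene and droplet. The files held 24354457 to 148657643 UMIs per library, and 984, 26757, 6412 and 5492 droplets passed the filters in vehicle IgG 1, vehicle IgG 2, mavrilimumab 1 and mavrilimumab 2, the order used for all values below. Droplets were grouped by genes that are not members. The T cell group held 231, 3953, 5262 and 2823 droplets, and the microglia group 582, 348, 201 and 681. The monocyte group held 2, 44, 35 and 70 droplets, the neutrophil group 9, 56, 13 and 52, and the neural group, CD45-negative by its RNA, 4, 15420, 2 and 414. Droplets of a group were summed per library, sums of at least 20 droplets were used, and levels are given as CPM, the UMIs of a gene per 1000000 UMIs of that sum. A UMI marks 1 end of a transcript and was not divided by length, so each gene is compared across groups and libraries, not with other genes. The 8 microglia markers kept out of the gates summed to 20200, 12975, 20328 and 19882 CPM in the microglia group and to 2846, 520, 811 and 1137 CPM in T cells, where all 8 were also above 0. The 6 T cell markers summed to 2428 to 3598 CPM in T cells and to 1.28 to 34.6 CPM in microglia. The monocyte sums also held dendritic cell markers, 650 to 1190 CPM over 6 genes. In 3 of the 3 T cell receptor files examined, the inner sample name gives the other treatment than the label does, and the receptor library labelled mavrilimumab 1 shared 2491 of its 2749 barcodes with expression library mavrilimumab 2 and 2 with mavrilimumab 1. The one labelled mavrilimumab 2 shared 4867 of 5659 with expression library mavrilimumab 1, and the one labelled vehicle IgG 1 shared 182 of 193 with expression library vehicle IgG 1. Treatments are given as the labels state them, and whether the labels or the inner names are right was not tested. Expression libraries shared 0 to 60 barcodes in pairs.

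The members divided the cell groups between them. C1qa, C1qb, C1qc and C3ar1 were highest in microglia, C5ar1 in neutrophils, Cfp in monocytes and neutrophils, C3 in monocytes, neutrophils and, in 1 library, neural droplets, and C4b in microglia and neural droplets. In T cells no member exceeded 17.3 CPM in any library, and only the C1q chains and C4b exceeded 5 CPM there.

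**Figure D1:**
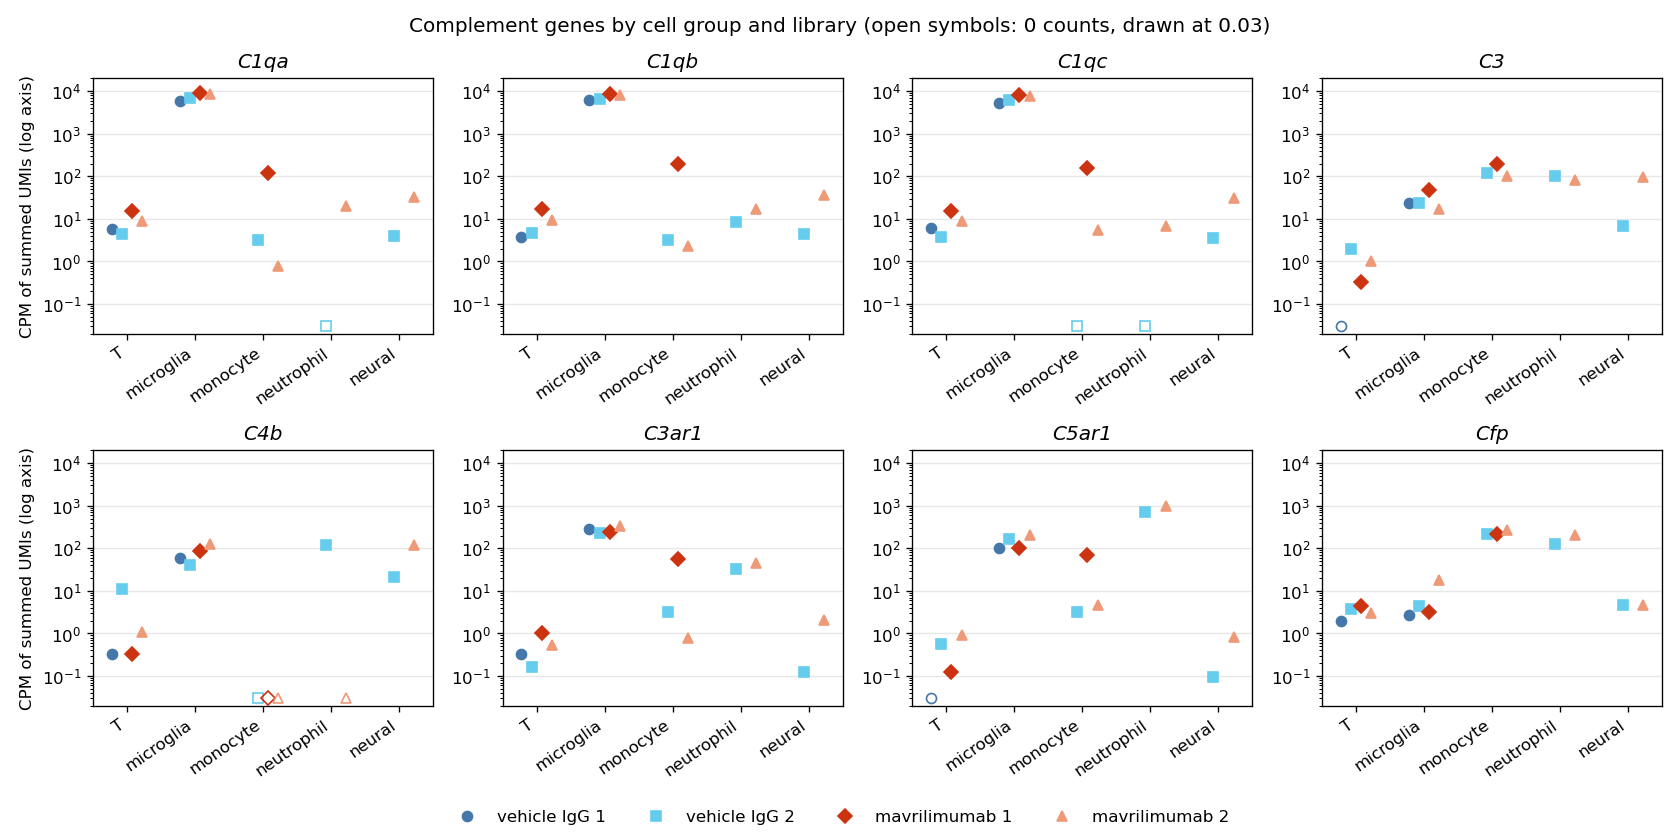
CPM of each complement gene (log axis) in the 5 cell groups, 1 symbol per library with at least 20 droplets of the group; open symbols at 0.03 mark sums with 0 counts. The C1q chains lie between 5356 and 8903 CPM in all 4 microglia sums, Cfp lies highest in the monocyte and neutrophil sums, and C5ar1 reaches 703 and 985 CPM in the neutrophil sums.

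C1q, the starter of the classical pathway, was by far highest in microglia among the 5 groups. C1qa, which encodes the A chain, measured 5983, 6943, 8903 and 8379 CPM in the microglia of the 4 libraries. C1qb, the B chain, measured 6117, 6689, 8478 and 7966 CPM, and C1qc, the C chain, 5356, 6198, 8111 and 7644 CPM. In the other 4 groups no sum exceeded 194 CPM for any chain. The microglia group held 99.6%, 82.9%, 87.1% and 91.8% of all C1q UMIs of the kept droplets, although it made up as little as 1.30% of them in vehicle IgG 2. Outside the 5 groups, the few droplets with markers of border-associated macrophages (3, 2 and 12 in vehicle IgG 2, mavrilimumab 1 and mavrilimumab 2) also held C1q, summing to 1667, 23633 and 3859 CPM from 27, 210 and 162 UMIs. Over the 15 sums of library and cell group, C1qa was most like C1qc (Pearson's r of log2(CPM + 1) 0.985) and C1qb (0.984) among 10298 genes, which is a description across sums that share libraries and depths. After the other chains, the nearest genes were Olfml3 for C1qa (0.963), Ccl7 for C1qb (0.970) and G530011O06Rik for C1qc (0.975). Within droplets the chains also moved together: with every microglial droplet thinned to 1000 UMIs, the 3 pairs of chains had r between 0.60 and 0.74 in every library.

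The 10 contrasts between cell groups were fitted in 1 edgeR model with library as a term, over 14583 genes, and a gene was called at an adjusted p under 0.05. Between T cells and microglia 41.7% of genes were called and 7 of the 8 members were, all higher in microglia. The level in microglia over that in T cells, on the log2 scale, was 10.02 (SE 1.04) for C1qa, 10.04 (SE 1.07) for C1qb, 9.95 (SE 0.98) for C1qc, 9.22 (SE 0.89) for C3ar1, 8.28 (SE 0.94) for C5ar1, 5.57 (SE 1.39) for C4b and 4.86 (SE 0.90) for C3. The C4b call was lost without mavrilimumab 1 (4.83, edgeR adjusted p = 0.0535). Cfp differed by 1.04 (SE 0.43, adjusted p = 0.0771) in the same direction. Between microglia and monocytes 19.6% of genes and 5 members were called. C1qa was 8.78 (SE 1.22), C1qb 8.25, C1qc 8.27 and C3ar1 4.72 (SE 0.96) higher in microglia on the log2 scale, and Cfp was 4.80 (SE 0.47) higher in monocytes. The C3ar1 call was lost without mavrilimumab 2 (3.52, edgeR adjusted p = 0.0608). Between microglia and neutrophils 16.5% of genes and 4 members were called, the C1q chains higher in microglia by 8.88 to 10.39 and Cfp higher in neutrophils by 4.17 (SE 0.52). C3ar1 was not called in this contrast. Leaving out mavrilimumab 2 or vehicle IgG 2 leaves 1 neutrophil sum each time. Without mavrilimumab 2 those C1q calls were lost. Between microglia and neural droplets 33.7% of genes and 5 members were called, all higher in microglia: C1qa by 9.04 (SE 1.41), C1qb by 8.84 (SE 1.43), C1qc by 9.04 (SE 1.33), C3ar1 by 9.32 (SE 1.29) and C5ar1 by 9.84 (SE 1.47).

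C3, the hub of the cascade, had a different distribution. In monocytes it measured 120, 191 and 102 CPM in vehicle IgG 2, mavrilimumab 1 and mavrilimumab 2, and in neutrophils 100 and 82.1 CPM in vehicle IgG 2 and mavrilimumab 2. Microglia measured 23.6, 23.2, 49.0 and 17.2 CPM, so that every monocyte and neutrophil sum lay above every microglia sum. The differences between microglia and monocytes (log2 −2.17, SE 0.87, edgeR adjusted p = 0.110) and between microglia and neutrophils (−1.68, SE 1.12, adjusted p = 0.349) did not pass the test. Without vehicle IgG 2 the former was called (2.23 higher in monocytes, adjusted p = 0.0172). In neural droplets C3 measured 6.72 CPM in vehicle IgG 2, where 240 of 15420 droplets held it, and 96.3 CPM in mavrilimumab 2, where 60 of 414 did. The same neural sums differed in microglial markers, whose summed level over 8 genes was 527 CPM and 1980 CPM. The part of these markers in the C3 difference was not tested. In T cells C3 was 0 of 2981237 UMIs in vehicle IgG 1, which allows up to 1.01 CPM, and 0.33 to 1.92 CPM in the other 3 libraries.

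Between T cells and monocytes 18% of genes and 4 members were called, between T cells and neutrophils 20.5% of genes and 4 members, and between T cells and neural droplets 39.3% of genes and 2 members, always lower in T cells. C3 was among them each time, with T cells lower by 7.04 (SE 0.98), 6.55 (SE 1.16) and 5.23 (SE 1.02) on the log2 scale. Without mavrilimumab 2 the C3 difference from neutrophils (edgeR adjusted p = 0.0733) and that from neural droplets (2.78, adjusted p = 0.130) were no longer called.

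C4b, a classical pathway component cleaved by the C1 complex, was found in microglia at 60.8, 40.6, 84.4 and 127.5 CPM and in neural droplets at 21.6 and 116.9 CPM. None of its UMIs was seen in monocytes of the 3 libraries tested, which allows up to 9.71, 10.8 and 2.31 CPM. Neutrophils had 117 CPM in vehicle IgG 2, of which 1 droplet held 13 of 14 UMIs, and 0 in mavrilimumab 2, which allows up to 10.3 CPM. T cells lay between 0.33 and 10.9 CPM, the highest in vehicle IgG 2, whose 136 UMIs came from 50 of 3953 droplets. The T cells of vehicle IgG 2 also held 9 of 9 neural markers at a summed 733 CPM (5.37 to 17.5 CPM in the other libraries), 4 of 4 oligodendrocyte markers at 48.7 CPM (0 to 6.15 CPM) and 5 of 5 astrocyte markers at 473 CPM (3.02 to 5.95 CPM). The part of these markers in C4b there was not tested. The T cell to neural difference for C4b was 4.38 (SE 1.52, edgeR adjusted p = 0.0491), and it was lost without vehicle IgG 1 (4.29, adjusted p = 0.0893), mavrilimumab 1 (3.93, adjusted p = 0.102) or mavrilimumab 2 (1.86, adjusted p = 0.435). C4b is nearly identical in sequence to C4a, so reads that match both may be counted for neither, which was not tested. C4a itself was at 0 to 0.349 CPM in the microglia sums. Among droplets outside the 5 groups that carried oligodendrocyte markers, C4b reached 355 CPM in vehicle IgG 2 (138 droplets) and 883 CPM in mavrilimumab 2 (24 droplets), above every microglia sum, and this was not tested. The genes most like C4b over the sums were Sall3 (r = 0.968), Fblim1 (0.965) and Ecscr (0.951).

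Cfp, which encodes properdin, was, among the 5 groups, highest per UMI in monocytes and neutrophils. Monocytes measured 217, 216 and 272 CPM, with a Cfp UMI in 30 of 44, 19 of 35 and 62 of 70 droplets, so the 3 monocyte sums lay close together in both treatments. Neutrophils measured 126 and 202 CPM. Microglia measured 2.68, 4.35, 3.21 and 18.3 CPM, T cells 2.01 to 4.39 CPM, and neural droplets 4.67 and 4.63 CPM. Monocytes and neutrophils, being few, held 22.0%, 12.7%, 27.9% and 34.6% of all Cfp UMIs of the kept droplets. Neural droplets held 52.4% in vehicle IgG 2 and T cells 47.9% in mavrilimumab 1. The highest of these low values, that of microglia in mavrilimumab 2, came from 25 of 681 droplets, of which 1 held 34 of the 144 UMIs. Cfp was higher in monocytes than in T cells by 5.84 (SE 0.47) on the log2 scale and than in neural droplets by 5.81 (SE 0.61), and in neutrophils than in T cells by 5.21 (SE 0.54). Dendritic cell-gated droplets, which carried Flt3, Cd209a, Clec9a or Xcr1, also held Cfp, at 117 CPM in vehicle IgG 2 (32 droplets) and 426 CPM in mavrilimumab 2 (29 droplets), the latter above every monocyte and neutrophil sum. The genes most like Cfp were AI839979 (r = 0.983), Gpr141 (0.976) and Ifitm6 (0.967).

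The receptors for C3a and C5a separated. C3ar1 measured 277, 233, 247 and 330 CPM in microglia, a range of under 1.5-fold. In neutrophils it measured 33.5 and 44.5 CPM, but in vehicle IgG 2 all 4 UMIs came from 1 droplet. In mavrilimumab 2 a single droplet held 8 of the 13 UMIs, and without that droplet the level was 17.9 CPM. Monocytes measured 3.24, 57.5 and 0.769 CPM, T cells 0.16 to 1.00 CPM, and neural droplets 0.12 and 2.10 CPM. The monocyte value of mavrilimumab 1 stood above the others, and it moved with C1q, which measured 6.47, 467 and 8.46 CPM in the same monocyte sums. In mavrilimumab 1, 5 of 35 monocyte droplets held C1q UMIs and 1 droplet held 83 of the 130. Without mavrilimumab 1, the differences of C3ar1 (1.46, edgeR adjusted p = 0.634) and C5ar1 (2.37, adjusted p = 0.0909) between monocytes and T cells, 4.50 (SE 1.15) and 5.22 (SE 1.17) with it, were no longer called. The C3ar1 difference between monocytes and neural droplets, 4.60 (SE 1.47) with mavrilimumab 1, was lost in the same way (1.44, adjusted p = 0.522) and also without vehicle IgG 2 (2.89, adjusted p = 0.196). In neutrophils C3ar1 was higher than in T cells by 6.71 (SE 1.30) and than in neural droplets by 6.81 (SE 1.48), and both calls were lost without mavrilimumab 2 (adjusted p = 0.134 and 0.0946), the latter also without vehicle IgG 2 (4.87, adjusted p = 0.0767).

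C5ar1, the receptor through which C5a draws neutrophils, measured 703 and 985 CPM in neutrophils, where 41 of 56 and 47 of 52 droplets held it. Microglia measured 103, 168, 101 and 204 CPM, so that the neutrophil sums lay at least 3-fold above them, although the contrast over all genes did not pass (2.41 higher in neutrophils on the log2 scale, SE 0.86, edgeR adjusted p = 0.0835). Without mavrilimumab 1 it did (2.02, adjusted p = 0.0238). Monocytes measured 3.24, 68.3 and 4.62 CPM. Between monocytes and neutrophils 11.7% of genes and 1 member were called, namely C5ar1, higher in neutrophils by 5.48 (SE 1.15, adjusted p = 0.0138). That call was lost without mavrilimumab 2 (4.17, adjusted p = 0.271). T cells measured 0 to 0.903 CPM, the 0 in vehicle IgG 1 allowing up to 1.01 CPM, and neural droplets 0.0965 and 0.841 CPM. Between monocytes and neural droplets 33.3% of genes and 3 members (C3ar1, C5ar1 and Cfp) were called, and between neutrophils and neural droplets 22.2% of genes and the same 3 members, all higher in the leukocytes. For C5ar1 these differences were 6.77 (SE 1.60) and 12.25 (SE 1.57) on the log2 scale, and the former was lost without vehicle IgG 2 (5.18, adjusted p = 0.078). C5ar1 was higher in neutrophils than in T cells by 10.70 (SE 1.07). The genes most like C5ar1 over the sums were Pilra (r = 0.969), Csf3r, the receptor of the neutrophil growth factor G-CSF (0.962), and Adgb (0.959). Those most like C3ar1 were Tmem104 (0.965), Gpr84 (0.961) and Tgfbr1 (0.955), and those most like C3 were Aldh2 (0.947), Nuak2 (0.923) and Ifitm3 (0.919).

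Of 48 further complement genes, 22 had enough counts for the contrasts between groups. Between T cells and microglia 10 of the 22 were called, a share near the 41.7% of all genes, and 8 of them were higher in microglia. Among these were Itgam, a chain of complement receptor 3 (mean 829 CPM in microglia, SD 265, n = 4), and C5ar2, the other C5a receptor (19.2 CPM, SD 3.73). Cd55, which dissociates C3-cleaving enzymes at the cell surface, was higher in T cells (29.6 CPM, SD 17.7, against 0.356 CPM), as was Cd93. Neural droplets carried Clu, which encodes clusterin, an inhibitor of terminal complement, at 6222 and 8986 CPM, and Cfb, the alternative pathway protease, at 70.7 and 742 CPM in vehicle IgG 2 and mavrilimumab 2. Between T cells and neural droplets 13 of the 22 were called, against 39.3% of all genes, and Cfb (log2 6.19, SE 1.76) and Clu (5.92, SE 1.40) were among the 8 higher in neural droplets. C9 and Hc, which encodes C5, of the terminal pathway, the alternative pathway protease gene Cfd and the regulator gene Cfi were at 0 UMIs in all 4 microglia sums.

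The first question on treatment was whether members differed in microglia between the libraries labelled mavrilimumab and those labelled vehicle IgG. The summed C1q level was 17457 and 19830 CPM in vehicle IgG and 25492 and 23989 CPM in mavrilimumab, means of 18644 ± 1678 and 24741 ± 1063 CPM (SD, n = 2). The groups did not overlap, and the two-sided exact permutation test gave p = 0.33, the smallest that 2 libraries against 2 allow. The share of microglia droplets with a C1q UMI after thinning to 1000 UMIs did overlap, with means of 84.7% (SD 11.1) and 91.5% (SD 4.91). As a level, C4b also did not overlap, at 60.8 and 40.6 against 84.4 and 127.5 CPM. With 2 libraries against 2, a gene unrelated to the labels fails to overlap with a probability of 0.33. The share of all genes that did not overlap was not counted, here or below, and the C1q chains moved together. At a common depth of 1000 UMIs per droplet, C4b was seen in 3.09% (18 of 582, 95% Clopper-Pearson interval 1.84 to 4.84%) and 2.59% (1.19 to 4.85%) of vehicle IgG microglia and in 8.96% (5.39 to 13.8%) and 12.04% (9.69 to 14.7%) of mavrilimumab microglia, and intervals cover counting error only. Without thinning those shares were 21.6%, 7.47%, 28.9% and 37.0%, at median depths of 14316, 3109, 5491 and 11024 UMIs. As background, C4b was seen after thinning in 0 to 0.557% of T cell droplets, at median depths of 12713, 2535, 3857.5 and 11072 UMIs. C3, C3ar1, C5ar1 and Cfp overlapped between treatments. Markers of other brain cells stood apart in vehicle IgG 2, whose microglia held 9 of 9 neural markers at a summed 746 CPM (3 to 8 of them at 14.5 to 34.6 CPM in the other libraries). The same microglia held 4 oligodendrocyte markers at 177 CPM (21.7 to 28.1 CPM elsewhere) and 5 astrocyte markers at 561 CPM (124 to 203 CPM elsewhere). Their microglia markers were lowest, at the 12975 CPM given above, and the part of these markers in the treatment differences was not tested.

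Over all genes no difference was called. In microglia 0% of 12340 genes (0 of them) passed the edgeR test at an adjusted p under 0.05, against 361 at an unadjusted p under 0.05 and 10 called by DESeq2, and 0 of the 8 members passed. The differences in log2 level, mavrilimumab minus vehicle IgG, were 0.49 (SE 0.22) for C1qa, 0.43 (SE 0.21) for C1qb, 0.52 (SE 0.22) for C1qc, 1.12 (SE 0.35) for C4b, 0.53 (SE 0.55) for C3, 0.25 (SE 0.28) for C3ar1, 0.25 (SE 0.44) for C5ar1 and 1.81 (SE 0.88) for Cfp. Their median was 0.51, that of all genes tested was −0.03, and every adjusted p was 1.00. The call for C4b rested on which libraries were used: without vehicle IgG 1 it was called (1.52, SE 0.33, edgeR adjusted p = 0.0212), in a fit that called 1264 of 11480 genes, and without any other library it was not. That fit has 1 vehicle IgG library, which is assumed to vary like the mavrilimumab libraries.

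C1q differed among microglia droplets of the same library. Droplets with under 20 C1q UMIs per 10000 made up 29.7% of the group in vehicle IgG 1 (173 of 582), 8.62% in vehicle IgG 2, 14.9% in mavrilimumab 1 and 7.64% in mavrilimumab 2. In vehicle IgG 1 these droplets had a summed level of the gate gene Tmem119 of 31.4 CPM against 909 CPM in droplets with at least 100 C1q UMIs per 10000. Their median depth was 6697 UMIs against 19746 UMIs. They also had more of the nuclear transcript Malat1 (median 135 against 80.5 UMIs per 10000) and of the long genes Lrmda (7964 against 879 CPM) and Nav2 (4883 against 633 CPM). The same held in mavrilimumab 1, with a median depth of 2019 against 6160.5 UMIs, Malat1 at 108 against 61.8 UMIs per 10000 and Lrmda at 7091 against 724 CPM. It also held in mavrilimumab 2, with 5411 against 12056.5 UMIs, Malat1 at 142 against 61.2 UMIs per 10000 and Lrmda at 2629 against 731 CPM. Vehicle IgG 2 went the other way in depth, with 6109 against 2877.5 UMIs, and in Malat1, with 80.9 against 90.6 UMIs per 10000. It also did so in Lrmda (253 against 598 CPM) and Nav2 (210 against 467 CPM). Tmem119 was lower in the C1q-poor droplets of every library. It was at 243 against 1018 CPM in vehicle IgG 2, 99.3 against 1159 CPM in mavrilimumab 1 and 50.7 against 1194 CPM in mavrilimumab 2. P2ry12, the other gate gene, was also lower in each, with the widest gap in vehicle IgG 2, at 124 against 2164 CPM. It was at 907 against 2504 CPM in vehicle IgG 1, 1125 against 2278 CPM in mavrilimumab 1 and 514 against 2214 CPM in mavrilimumab 2. In vehicle IgG 2, 25 of the 30 C1q-poor droplets held no C1q UMI. Whether C1q-poor droplets were microglia was not tested. In mavrilimumab 1 and 2 the C1q-poor droplets also carried Cd74, the class II invariant chain, at 4643 and 8336 CPM, against 269 and 116 CPM in the C1q-rich ones. In vehicle IgG 1 and 2 Cd74 went the other way, at 5.10 and 0 CPM against 310 and 189 CPM. In vehicle IgG 2 the C1q-poor droplets carried Mylpf, a muscle myosin light chain, at 2494 against 1.99 CPM.

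Vehicle IgG 1, with the largest share of such droplets, also had the lowest summed C1q level. Microglia droplets that also held a Tmem119 UMI, a restriction chosen after seeing the data, numbered 406, 301, 170 and 616. Their summed C1q level was 20121 and 20804 CPM in vehicle IgG and 27013 and 25131 CPM in mavrilimumab, so that the treatments did not overlap. These droplets are part of the same microglia groups, so this is not a separate result. C1q-poor droplets had less Tmem119, so the restriction itself bears on these C1q levels. The log2 differences between treatments were then 0.43 (SE 0.20) for C1qa, 0.36 (SE 0.20) for C1qb, 0.45 (SE 0.20) for C1qc and 1.25 (SE 0.44) for C4b, with 0 of 11977 genes called by edgeR (253 at an unadjusted p under 0.05).

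**Figure D2:**
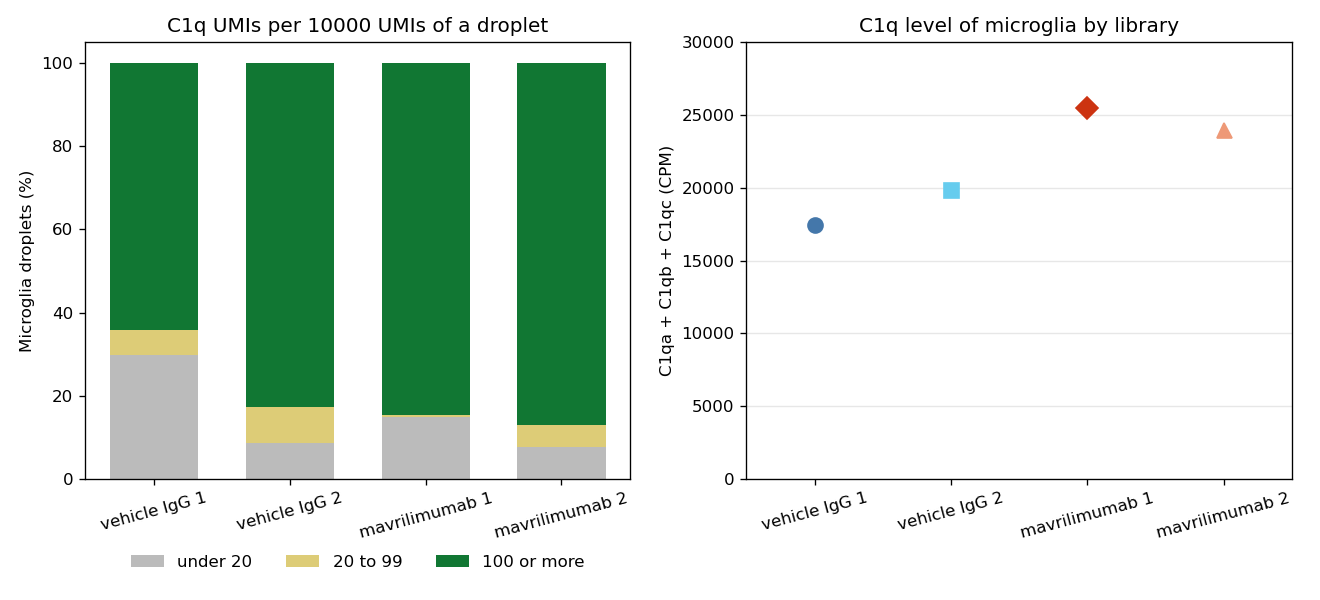
Left, percentage of microglia droplets per library with under 20, 20 to 99 and 100 or more C1q UMIs per 10000 UMIs; vehicle IgG 1 has the largest share under 20 (29.7%). Right, summed CPM of C1qa, C1qb and C1qc over all microglia droplets of each library (axis from 0); both vehicle IgG libraries, at 17457 and 19830 CPM, lie below both mavrilimumab libraries, at 25492 and 23989 CPM.

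A second comparison asked how the members followed the activated state of microglia. After thinning to 1000 UMIs, droplets with at least 2 UMIs over Cst7, Lpl, Itgax, Clec7a, Spp1 and Gpnmb, genes of activated microglia, were called activated (99, 91, 36 and 218 droplets) and those with none were called other (377, 194, 111 and 312). The fit compared the states within libraries, over 10916 genes, of which 14.5% were called, and 6 of the 7 members tested were called, all higher in activated microglia. Cfp had too few counts.

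C5ar1 had the largest of these differences. It measured 168, 242, 114 and 269 CPM in activated and 81.3, 108, 83.1 and 153 CPM in other microglia, higher in 4 of 4 libraries (log2 1.06, SE 0.15, edgeR adjusted p = 0.000226). C1q summed to 21732, 26820, 30394 and 27202 CPM in activated and 14864, 14906, 22710 and 21621 CPM in other microglia. Every library was again higher in the activated state, and the log2 differences were 0.74 (SE 0.13) for C1qa, 0.64 (SE 0.13) for C1qb and 0.69 (SE 0.13) for C1qc, with edgeR adjusted p of 0.00146, 0.00432 and 0.00275. C3 measured 31.0, 39.9, 52.3 and 21.6 CPM against 20.7, 18.0, 43.3 and 10.7 CPM (0.89, SE 0.21, adjusted p = 0.0106). C3ar1 measured 435, 242, 330 and 338 CPM against 192, 218, 196 and 326 CPM (0.69, SE 0.17, adjusted p = 0.014), so that vehicle IgG 1 and mavrilimumab 1 differed most and the other libraries little. With the gates as written C3 (0.99, adjusted p = 0.0528) and C3ar1 (0.71, adjusted p = 0.0802) were no longer called. The C3 call was lost without mavrilimumab 2 (0.76, adjusted p = 0.0589), and the C3ar1 call without mavrilimumab 1 (0.62, adjusted p = 0.0995) and also without vehicle IgG 1 (0.42, adjusted p = 0.114).

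Depth and C1q-poor droplets moved with the state. Median depth was 20328, 4389, 9206.5 and 12293.5 UMIs in activated against 11123, 2614, 4422 and 10930.5 UMIs in other microglia. Of the other microglia 156, 19, 25 and 34 droplets had under 20 C1q UMIs per 10000, against 1, 5, 1 and 4 of the activated. In droplets that also held a Tmem119 UMI the C1q differences were smaller, 0.54 (SE 0.12) for C1qa, 0.46 (SE 0.12) for C1qb and 0.50 (SE 0.12) for C1qc, and were called with C5ar1 (0.93, SE 0.13), in a fit that called 8.39% of genes. There C3 (0.66, edgeR adjusted p = 0.0683) and C3ar1 (0.49, adjusted p = 0.0533) were not called. On counts thinned to 1000 UMIs per droplet, where 19.4% of 4054 genes were called, C1qa (0.78, SE 0.17), C1qb, C1qc and C5ar1 (1.11, SE 0.28) were called, C3ar1 was not (0.41, adjusted p = 0.253), C3 was not tested, and C4b was called (1.06, SE 0.35, adjusted p = 0.0247). At that depth C3ar1 was seen in 31.3% of activated and 14.1% of other droplets of vehicle IgG 1 and in 20.9% and 19.1% in vehicle IgG 2. In the libraries labelled mavrilimumab its share was lower in activated droplets, 13.9% against 15.3% and 26.6% against 27.6%. Without library as a term in the fit 3 genes and 0 members were called. Of the other complement genes, without the gate gene Itgax, 5 of the 17 tested were called in the fit on full counts, against 14.5% of all genes, all higher in activated microglia, namely C2 (1.15, SE 0.37), Cfb (0.78, SE 0.24), Itgb2, a chain of complement receptors 3 and 4 (0.86, SE 0.16), C1qbp (0.63) and Calr (0.63).

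C4b was the 1 member of the 7 tested whose difference between states was called different between treatments. In vehicle IgG it measured 47.8 and 22.2 CPM in activated against 67.3 and 49.4 CPM in other microglia. In mavrilimumab it measured 94.9 and 186 CPM in activated against 65.8 and 85.4 CPM in other microglia. These values rest on 88, 10, 29 and 506 C4b UMIs in activated and 331, 33, 38 and 295 in other microglia. In CPM C4b was lower in activated microglia in 2 of 2 libraries labelled vehicle IgG and higher in 2 of 2 labelled mavrilimumab. At the common depth of 1000 UMIs the direction in vehicle IgG 1 was the other, with C4b in 4.04% of activated and 3.45% of other droplets. The shares there were 1.10% and 2.58% in vehicle IgG 2, 11.1% and 5.41% in mavrilimumab 1, and 18.8% and 7.05% in mavrilimumab 2. The test of that difference, added after seeing the data, gave a log2 value of 1.59 (SE 0.35, edgeR adjusted p = 0.041), with 0.165% of 10916 genes called (18 genes) and 1 of 7 members. It missed the threshold with DESeq2's size factors (1.62, adjusted p = 0.0535), in droplets with a Tmem119 UMI (1.57, SE 0.32, adjusted p = 0.0533), with DESeq2's own test (1.62, SE 0.57, adjusted p = 1.00) and on thinned counts (2.00, SE 0.83, adjusted p = 1.00). The log2 value was 1.18 (SE 0.56) without mavrilimumab 2 and 1.54 to 2.14 without any other library. Any fit without 1 library has 1 library left in an arm, which is assumed to vary like the others. C3ar1, which did not differ in this test (−0.40, SE 0.33), was called without vehicle IgG 2 (−0.86, adjusted p = 0.0247). Over all libraries together the C4b difference between states did not pass on full counts (0.40, SE 0.25, adjusted p = 0.327), and it was called on thinned counts, as given above.

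**Figure D3:**
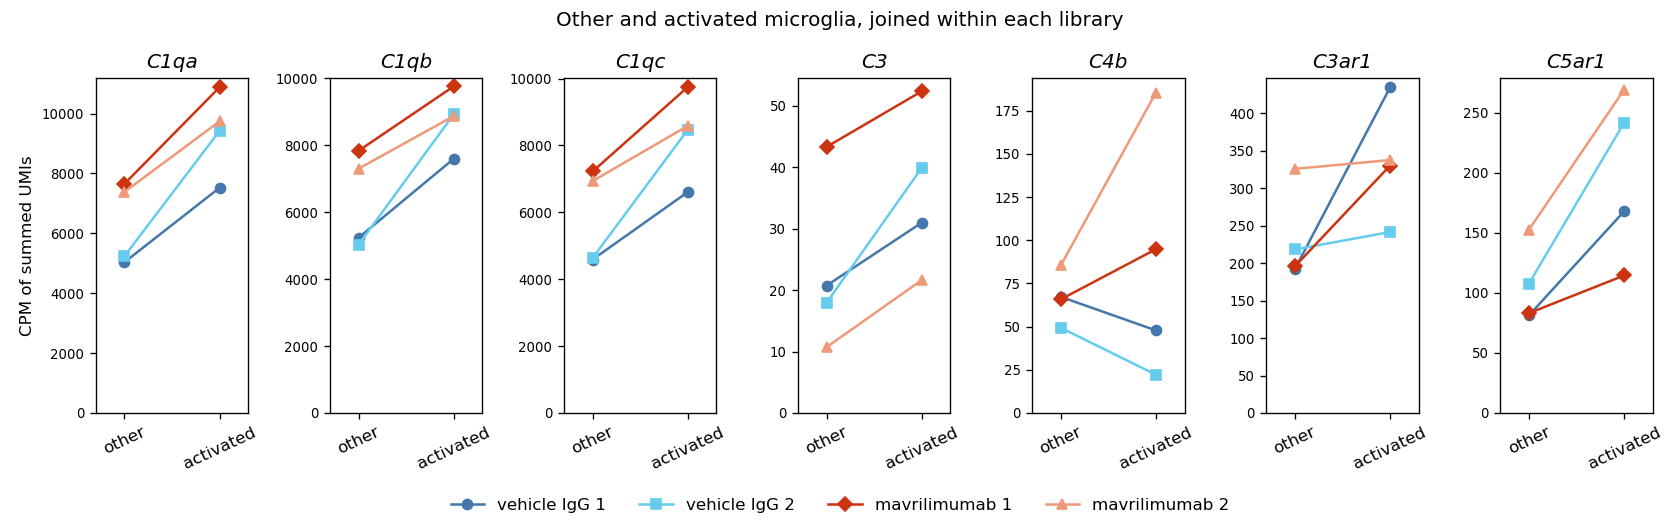
CPM of 7 complement genes (each axis from 0) in other and activated microglia, with the 2 values of a library joined by a line. All lines rise for C1qa, C1qb, C1qc, C3, C3ar1 and C5ar1; for C4b the vehicle IgG lines fall (67.3 to 47.8 and 49.4 to 22.2 CPM) and the mavrilimumab lines rise (65.8 to 94.9 and 85.4 to 186 CPM).

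The last comparison set the C1q seen in T cells beside that of empty droplets, which hold free RNA. T cells are not known as a source of C1q. Their summed C1q level was 15.4, 12.8, 48.3 and 27.7 CPM, from 46, 160, 1156 and 982 UMIs. Empty droplets, those with 1 to 99 UMIs, had 2902, 178, 641 and 2078 CPM. T cells lay below the empty droplets of their own library in 4 of 4 libraries, by a mean of 5.33 on the log2 scale (SD 1.89, n = 4), and the two-sided exact permutation test gave p = 0.13, the smallest that 4 libraries allow. CPM divides by all RNA of a droplet, the cell's own included. Counted per droplet, the order was the other way for empty droplets of 1 to 99 UMIs. T cells held 199, 40.5, 220 and 348 C1q UMIs per 1000 droplets, and those empty droplets 44.1, 0.321, 9.22 and 33.4. In droplets of 100 to 200 UMIs the libraries were divided. Vehicle IgG 1 (1688 C1q UMIs in 1799 droplets) and mavrilimumab 1 (661 in 1832) lay above their T cells per droplet. Vehicle IgG 2 (879 in 61277) and mavrilimumab 2 (3968 in 16408) lay below theirs. Empty droplets of vehicle IgG 2 averaged 1.81 UMIs, and its next class, 61277 droplets of 100 to 200 UMIs, had 87.9 CPM, also above the T cells. With the gates as written, which leave droplets that pass more than 1 gate in their groups, the mean difference was 3.08 (SD 2.99), and T cells were lower in every library. In vehicle IgG 2 the values were then close, 151 against 178 CPM, and the T cells lay above the class of 100 to 200 UMIs. Setting aside the droplets that passed more than 1 gate had taken the C1q UMIs of T cells from 2057 to 160 in vehicle IgG 2 and from 11338 to 982 in mavrilimumab 2.

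**Figure D4:**
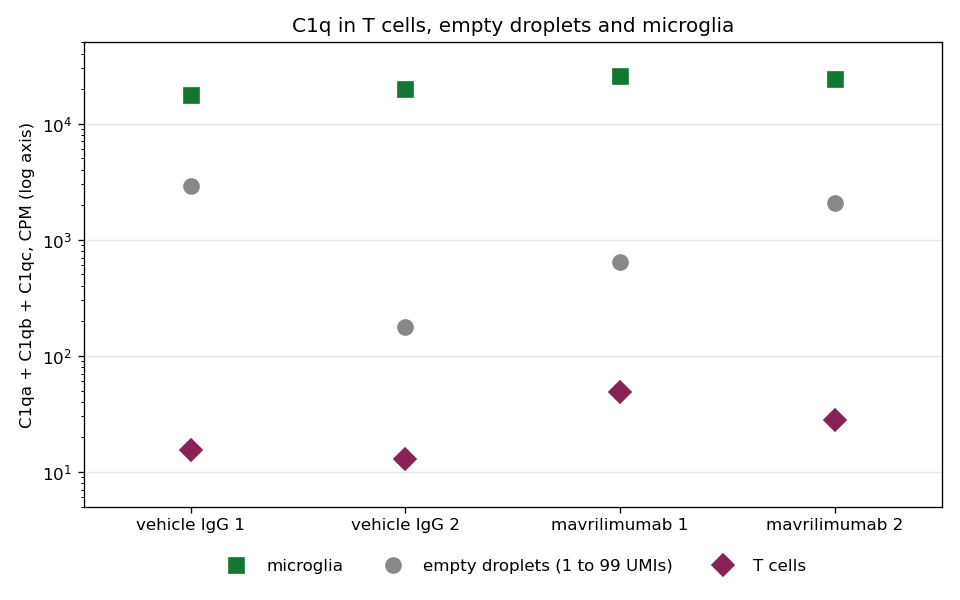
Summed CPM of C1qa, C1qb and C1qc (log axis) in microglia, empty droplets of 1 to 99 UMIs and T cells of each library. T cells (12.8 to 48.3 CPM) lie below the empty droplets (178 to 2902 CPM) of the same library in all 4, and microglia lie at 17457 CPM or more.

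The C1q UMIs of T cells were in part gathered in few droplets. Of all C1q UMIs in T cells 17.4%, 35.6%, 56.7% and 40.5% lay in droplets with at least 3 of them, and the fullest T cell droplet held 4, 23, 139 and 93. Those droplets numbered 2, 8, 74 and 45. The ratio of C1q to Trem2 UMIs, Trem2 being a microglial receptor, was 15.3, 16.0, 31.2 and 13.3 in T cells, 10.3, 22.2, 13.03 and 16.8 in empty droplets and 14.5 to 18.9 in microglia, with only 3 to 74 Trem2 UMIs behind the T cell ratios. The ratio to the summed UMIs of Cx3cr1 and Csf1r, receptors found in microglia, was 0.622, 1.50, 2.96 and 2.46 in T cells, on 74 to 400 such UMIs. It was 1.53, 4.65, 2.75 and 4.54 in empty droplets and 3.49, 7.71, 5.67 and 5.64 in microglia, the microglia lying above the T cells in every library. The part of Cx3cr1 or Csf1r RNA made by the T cells themselves in the T cell ratio was not tested.

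After thinning to 1000 UMIs, 2.16% (95% Clopper-Pearson interval 0.706 to 4.98%), 1.19% (0.875 to 1.58%), 3.55% (3.07 to 4.09%) and 2.87% (2.29 to 3.55%) of T cell droplets held a C1q UMI, against 76.8%, 92.5%, 88.1% and 95.0% of microglia. The share was 1.53 percentage points higher in mavrilimumab (exact permutation p = 0.33, the smallest possible), and the groups did not overlap. Without thinning the shares were 14.3%, 2.58%, 9.39% and 18.8%, at the unequal T cell depths given above, and overlapped between treatments. In the edgeR fit of T cells 0% of 14382 genes were called (0, against 755 at an unadjusted p under 0.05 and 181 by DESeq2), and 0 of the 7 members tested were. The log2 differences, mavrilimumab minus vehicle IgG, were 1.38 (SE 0.44) for C1qa, 1.78 (SE 0.45) for C1qb and 1.45 (SE 0.48) for C1qc, each with an adjusted p of 0.792. The number of microglia captured, the free C1q and the T cell depth differed between libraries, and the part of each in these values was not tested.

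In monocytes there was 1 library of vehicle IgG against 2 of mavrilimumab, so the spread comes from the mavrilimumab libraries alone and the vehicle IgG library is assumed to vary like them. There 1.52% of 6389 genes were called and 0 of the 7 members tested were. The members are therefore given as levels. C1qc was at 0 UMIs in vehicle IgG 2, which allows up to 9.71 CPM, and at 155 and 5.39 CPM in mavrilimumab. The higher value came from the mavrilimumab 1 droplets described above, without the fullest of which summed C1q there was 171 CPM. The C3 and Cfp levels of these monocytes were given above, and vehicle IgG 2 lay between the mavrilimumab libraries for both. Among the other complement genes Clu alone was called, and it was at 540 CPM in vehicle IgG 2, the library with 15420 neural droplets, and at 0 and 10.0 CPM in mavrilimumab. The neural droplets of vehicle IgG 2 held Clu at 6222 CPM and its T cells at up to 1325 CPM, and their part in this difference was not tested. Neutrophils and neural droplets had 1 library per treatment and were not tested.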

How the data were processed

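The 4 gene expression files held UMI counts per gene and droplet, which the authors deposited as unfiltered matrices. Their headers name Cell Ranger 9.0.1 (the submitters' processing notes name Cell Ranger 7 and 7.1.0, Scanpy 1.8.2 and mm10). The 3 receptor files, which also hold deposited counts, served only to compare barcodes. Kept droplets had at least 1000 UMIs, 200 to 6000 genes and at most 10% mitochondrial UMIs (neutrophils at least 500 UMIs). Gates were Cd3e at least 1 (T), P2ry12 + Tmem119 at least 2 (microglia), Ccr2 + Ly6c2 at least 2 with Lyz2 at least 2 and no Cd3e (monocytes), Retnlg + Cxcr2 at least 2 (neutrophils), and no Ptprc with Nnat + Mdk at least 3 (neural). Droplets passing more than 1 gate, 7, 517, 36 and 157 per library, were set aside as possible doublets, and no doublet caller was run.

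Counts summed per library and group were compared in edgeR 4.0.16 by quasi-likelihood (TMM, filterByExpr, R 4.3.3), with Benjamini-Hochberg adjustment over all genes tested, at an adjusted p under 0.05. An SE is the log2 fold change over the square root of F. DESeq2 1.42.0 was an alternative. Other values were computed with numpy 2.4.6, scipy 1.17.1 and pandas 2.3.3. The text names all 8 members, other complement genes with a mean of at least 20 CPM in 1 group or called for treatment, and for each member the 3 most correlated genes with a mean of at least 10 CPM; C2, C5ar2, C4a, Cd93, C9, Hc, Cfd and Cfi, and the genes describing C1q-poor droplets, were named after their values were seen. The members, gates and lists were chosen with earlier results of these data known. The limit for a count of 0 is 3 counts. Some genes, and fits that need them, are not reported here.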

Additional observations from a re-analysis of the deposited data

Results flagged for a closer look

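C4b, the classical pathway component, was flagged for the direction of its CPM between states. It was lower in activated than in other microglia in both libraries labelled vehicle IgG and higher in both labelled mavrilimumab. The test of that difference between treatments was added after seeing the data (log2 1.59, SE 0.35, edgeR adjusted p = 0.041), so it is not independent of the flag. At 1000 UMIs per droplet the C4b share in vehicle IgG 1 was 4.04% of activated against 3.45% of other droplets, the other direction. The values in activated microglia rest on 99, 91, 36 and 218 droplets, with 88, 10, 29 and 506 C4b UMIs, in vehicle IgG 1 and 2 and mavrilimumab 1 and 2. It missed the threshold with DESeq2's size factors, DESeq2's own test, thinned counts and droplets with a Tmem119 UMI, with log2 values of 1.57 to 2.00 and adjusted p of 0.0533 to 1.00, and without mavrilimumab 2 (1.18). The inner names of the receptor files give the other treatment, while of the 193 receptor barcodes labelled vehicle IgG 1, 182 were also in the expression data of that name. The direction is that of the labels.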

How the results depend on the processing

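For the 8 members, contrasts between cell groups were counted only where the unadjusted edgeR p was under 0.05 in the main fit. Among these, 360 alternative values kept their direction and side of the threshold, 23 lost and 22 gained it. No such limit was set for the activated states and treatment. Between activated states (with the difference between treatments) these were 103, 19 and 2, and for treatment 203, 0 and 3, and the others turned direction. Genes called for treatment in T cells moved from 0 to 181 with DESeq2. In microglia they moved from 0 to 8 without the filter on low counts and 10 with DESeq2, and leaving out 1 library gave 0 to 1264 genes (1264 without vehicle IgG 1, 229 without vehicle IgG 2, each with 1 library left in that arm, assumed to vary like the others) and 0 to 1 member. In monocytes 97 became 535 (with 2 members, C1qb and C1qc) without that filter, 23 with DESeq2 and 34 at a minimum of 2000 UMIs.

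Between activated states 1585 genes became 977 with DESeq2, 383 with the gates as written (4 members, without C3 and C3ar1), 788 on thinned counts, 883 in droplets with a Tmem119 UMI and 3 (0 members) without a library term. Leaving out 1 library gave 808 to 1411 genes. The difference in state between treatments called 18 genes, 3 with DESeq2, 8 with a Tmem119 UMI and 1 on thinned counts, with 1 member against 0 in each of these and with DESeq2's size factors, and leaving out 1 library gave 11 to 157 genes and 0 to 2 members. Over the 10 contrasts 37407 calls became 10372 without mavrilimumab 2, which leaves 1 neutrophil and 1 neural sum, and up to 46606 without another library (vehicle IgG 2).

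Directions turned for values that were not called. Leaving out 1 library, C3 for treatment in T cells ranged from −1.57 to 6.87 (turned without vehicle IgG 2, and 0.14 without mavrilimumab 1) and C4b there from −4.00 to 1.28. In microglia C3 ranged from −0.37 to 1.16 and C5ar1 from −0.31 to 0.68. C4b between states ranged from −0.18 to 0.82. In the difference of states between treatments C3 ranged from −0.50 to 0.33 (0.0059 with size factors, 0.16 with a Tmem119 UMI), and C3ar1 from −0.86 to 0.12. The cause was not tested.

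Replicate numbers are shared by the groups, but nothing in the labels ties equal numbers together, and with 2 pairs the correlation of their deviations (0.42 in T cells, 0.39 in microglia) does not establish a pairing. With the replicate block 140 genes in microglia and 0 in T cells were called, with 0 members in each. Monocytes allow no such fit and none without a replicate, and neutrophil and neural droplets none for treatment. The thinned, Tmem119 and difference-of-states settings were chosen after seeing the data. Few counts stood behind C5ar1 in T cells, with 0 to 32 UMIs per library, and C4b in monocytes, with 0.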
